A study of Mus musculus with 6 samples.

Results

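Fatty acid oxidation breaks fatty acids down to acetyl-CoA, and 32 genes of this pathway were followed here by symbol among the 29752 genes measured in the mouse aorta. All 32 were found, and 29 of them had at least 1 FPKM (reads scaled to gene length and library size) in at least 3 libraries and were tested together with 12620 genes in all. The libraries came from the aortas of 15-week-old C57BL/6 mice, which ate normal diet over the last 7 weeks, starting when 8 weeks old. The PALMD+/- group holds 3 libraries, from mice heterozygous for the gene of palmdelphin, and the wild-type group holds another 3. The labels give neither the part of Palmd that was altered nor whether each library was made from a single animal, so p-values measure the spread between these samples. Replicate numbers are those of the sample titles, while the PALMD+/- column headers carry other numbers.

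Long-chain fatty acids are joined to coenzyme A, carried into mitochondria as carnitine esters and shortened by a repeating cycle of dehydrogenation, hydration, a second dehydrogenation and thiolysis. Electrons from the first step reach the respiratory chain through the electron-transferring flavoprotein, and peroxisomes run a parallel cycle for very long and branched chains. The nuclear receptor PPAR alpha switches on many of these genes, which are highly active in brown fat, heart and liver. The aorta is bordered by perivascular fat, which in the mouse thorax resembles brown fat.

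The library totals were alike, with 17283773 to 18371967 reads behind the values. Palmd itself was at 5.31, 7.19 and 6.21 FPKM in PALMD+/- and at 5.49, 7.88 and 10.1 FPKM in wild type, so the groups overlapped. PALMD+/- replicate 2 stood apart, with a mean correlation of 0.930 with the other libraries, against 0.960 to 0.971 for the rest. The smooth muscle actin Acta2 was at 8012, 3701 and 8367 FPKM in PALMD+/- and at 8235, 7252 and 5866 FPKM in wild type, the most abundant of the 6 smooth muscle markers. All 6 smooth muscle markers were lowest in PALMD+/- replicate 2.

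Markers of brown and white adipocytes were present in every library and differed widely among them. Ucp1, the uncoupling protein of brown fat, was at 34.9, 790 and 153 FPKM in PALMD+/- and at 117, 682 and 489 FPKM in wild type. The 8 brown adipocyte markers summed to 84.0, 1332 and 304 FPKM in PALMD+/- and to 247, 1066 and 857 FPKM in wild type. Among them Elovl3 was listed at 0 in PALMD+/- replicate 1, and Zic1 was at or below 0.0192 FPKM in every library. Dio2, the deiodinase of brown fat, ran against the sum, at 7.64, 6.11 and 11.1 FPKM in PALMD+/- and at 10.3, 20.1 and 14.3 FPKM in wild type, and was lowest in PALMD+/- replicate 2. The 8 white or general adipocyte markers summed to 1398, 4451 and 1849 FPKM in PALMD+/- and to 1547, 2281 and 3338 FPKM in wild type. Adipoq, the adipocyte hormone adiponectin, was at 85.3, 325 and 122 FPKM in PALMD+/- and at 133, 187 and 299 FPKM in wild type. Of 14 markers of striated and cardiac muscle, the other tissues rich in this pathway, 9 stayed below 1 FPKM in every library. All 14 summed to 10.8 to 21.4 FPKM in PALMD+/- and to 13.2 to 21.6 FPKM in wild type. The highest of them, the cardiac actin Actc1, was at 13.7, 5.47 and 15.4 FPKM in PALMD+/- and at 5.88, 14.2 and 17.1 FPKM in wild type. The cardiac myosin Myh6, highest in PALMD+/- replicate 2 where Actc1 was lowest, was at 0.276 to 0.574 FPKM in PALMD+/- and at 0.0700 to 0.310 FPKM in wild type.

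Hadha and Hadhb, which encode the alpha and beta subunits of the mitochondrial trifunctional protein, have overlapping promoter windows. The windows are shown for that overlap, and the pair was added after its values were seen. Their RefSeq start sites (GRCm38.p6) lie 273 bases apart on opposite strands of chromosome 5. The windows from 250 bases before to 50 bases after each start have 228 bases in common, written here in capitals, each window 5′ to 3′ on the strand of its gene. Hadha lies on the minus strand at chr5:30154931-30155230 and Hadhb on the plus strand at chr5:30155003-30155302.
Hadha: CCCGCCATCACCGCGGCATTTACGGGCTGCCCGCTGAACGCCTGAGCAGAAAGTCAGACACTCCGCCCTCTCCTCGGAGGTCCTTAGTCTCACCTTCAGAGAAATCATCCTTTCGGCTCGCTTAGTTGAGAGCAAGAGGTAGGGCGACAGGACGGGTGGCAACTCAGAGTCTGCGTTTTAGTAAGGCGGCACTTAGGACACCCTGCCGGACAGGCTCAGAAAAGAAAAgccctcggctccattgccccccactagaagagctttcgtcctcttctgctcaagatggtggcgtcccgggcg
Hadhb: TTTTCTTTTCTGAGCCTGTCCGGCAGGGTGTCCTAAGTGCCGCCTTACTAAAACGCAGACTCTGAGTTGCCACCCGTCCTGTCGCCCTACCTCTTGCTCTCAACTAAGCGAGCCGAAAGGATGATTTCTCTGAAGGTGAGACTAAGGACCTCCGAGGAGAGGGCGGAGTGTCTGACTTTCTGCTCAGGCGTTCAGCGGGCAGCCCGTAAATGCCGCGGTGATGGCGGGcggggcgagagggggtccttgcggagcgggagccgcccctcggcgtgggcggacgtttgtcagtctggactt

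These 2 genes, read in opposite directions, followed the same order of libraries. That order was not particular to the pair, since members on other chromosomes, among them Acadl, Acadm and Acaa2, had it too. Hadha was at 19.9, 73.6 and 28.4 FPKM in PALMD+/- and at 28.6, 47.7 and 57.0 FPKM in wild type. Hadhb was at 11.8, 77.4 and 22.8 FPKM in PALMD+/- and at 25.9, 48.4 and 59.8 FPKM in wild type. Both were lowest in PALMD+/- replicate 1 and highest in PALMD+/- replicate 2, and the ratio of Hadha to Hadhb was 1.68 in the first and 0.950 in the second. Of the 50-base stretches of the Hadhb transcripts, 18.1% also occur in Gm13910, so part of its reads may be divided between copies.

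No fatty acid oxidation gene passed the threshold between PALMD+/- and wild type. With limma on log2(FPKM + 1) and Benjamini-Hochberg adjustment over all genes tested, 0 of the 29 tested members and 0 of 12620 genes (0%) had an adjusted p under 0.05, and the members' adjusted p ranged from 0.616 to 0.987. At an unadjusted p under 0.05 there was 1 member, Acox3, against 820 genes or 6.50% of all tested. On the log2 fold change the members leaned to lower values in PALMD+/-, with 22 of 29 below 0 against 46.9% of all genes, and a median of -0.31 against 0.01 over all genes. The standard errors of the members ran from 0.10 to 0.67, and the 95% interval included 0 for 28 of the 29. Fewer cells of a type and less RNA per cell cannot be told apart in these bulk samples.

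The spread among libraries of the same genotype was larger than the difference between genotypes. The 32 genes summed to 563, 2015 and 771 FPKM in PALMD+/- and to 782, 1384 and 1622 FPKM in wild type. The highest and the lowest library of all 6 were both PALMD+/-, so the groups overlapped fully. Across the 6 libraries the highest value of a member was a median of 3.59 times its lowest, over all 32, untested ones included. For all tested genes above 0 in every library the median was 1.52 times. Of the 29 tested members, 23 were highest in PALMD+/- replicate 2 (26.4% of all tested genes) and 24 were lowest in PALMD+/- replicate 1 (14.8%). For 23 of the 29, PALMD+/- replicate 2 and wild type replicates 2 and 3 all lay above the other 3 libraries, which was so for 10.0% of all tested genes. The same 3 libraries had the 3 highest sums of brown adipocyte markers and also of white or general adipocyte markers. Among single markers, 6 of 8 brown and 5 of 8 white or general ones had these 3 libraries above the others. Cfd made up most of the white or general sum (999 to 3161 FPKM in PALMD+/-, 1006 to 2288 FPKM in wild type). On the mean log2 level of that list, wild type replicates 2 and 1 were alike (6.46 and 6.44). The pattern of the members was noticed after the values were seen, and the part of adipocyte content in it was not tested.

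**Figure D1:**
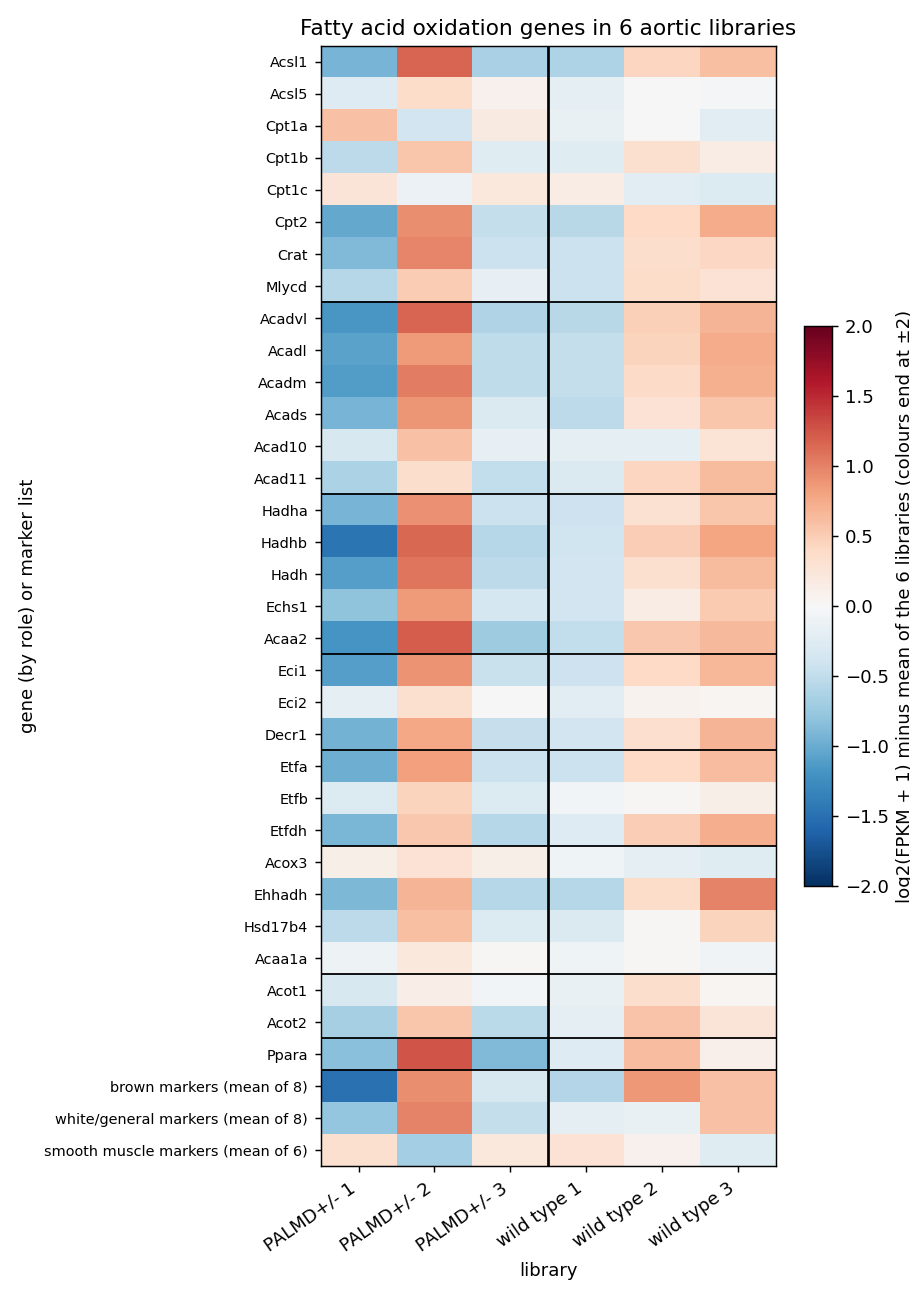
Heat map of the 32 fatty acid oxidation genes (rows, by role, from activation and carnitine shuttle at the top to the regulator Ppara) and of 3 marker lists (bottom rows, mean over the list) in 6 libraries (columns, 3 PALMD+/- then 3 wild type). Colour gives log2(FPKM + 1) minus the mean of the 6 libraries. Most rows are deepest blue in PALMD+/- replicate 1 and deepest red in PALMD+/- replicate 2, as are both adipocyte marker rows, while Cpt1a and the smooth muscle markers run the other way.

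**Figure D2:**
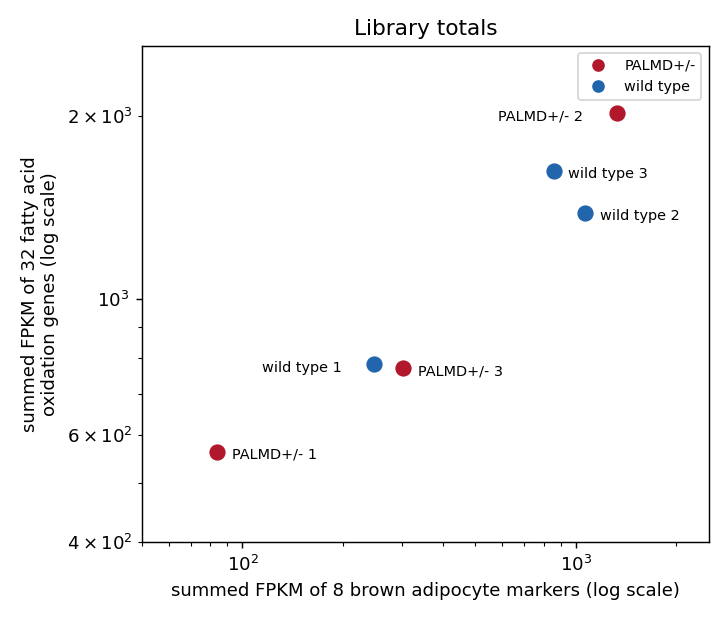
Summed FPKM of the 32 fatty acid oxidation genes (vertical, log scale) against summed FPKM of 8 brown adipocyte markers (horizontal, log scale), 1 point per library. PALMD+/- replicate 1 is lowest on both axes (563 and 84.0 FPKM) and PALMD+/- replicate 2 highest on both (2015 and 1332 FPKM), with PALMD+/- replicate 3 beside wild type replicate 1.

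The direction of the group difference depended on which PALMD+/- library was included. Without PALMD+/- replicate 2 the median log2 fold change of the members was -0.82, with 25 of 29 below 0. Without PALMD+/- replicate 1 it was 0.07, with 8 of 29 below 0, and with the brown adipocyte marker level as a covariate it was 0.12, with 7 of 29 below 0. The median also moved to -0.62 without wild type replicate 1, -0.11 without wild type replicate 3, -0.21 without wild type replicate 2 and -0.15 without PALMD+/- replicate 3. No member passed the threshold under any of these settings, in which 0 to 1 of all genes did (0.00792% without PALMD+/- replicate 1, 0% without PALMD+/- replicate 2). With the white or general adipocyte level as a covariate 0 members were called, against 0.198% of all genes, and with array quality weights 0 members, against 1.84%.

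**Figure D3:**
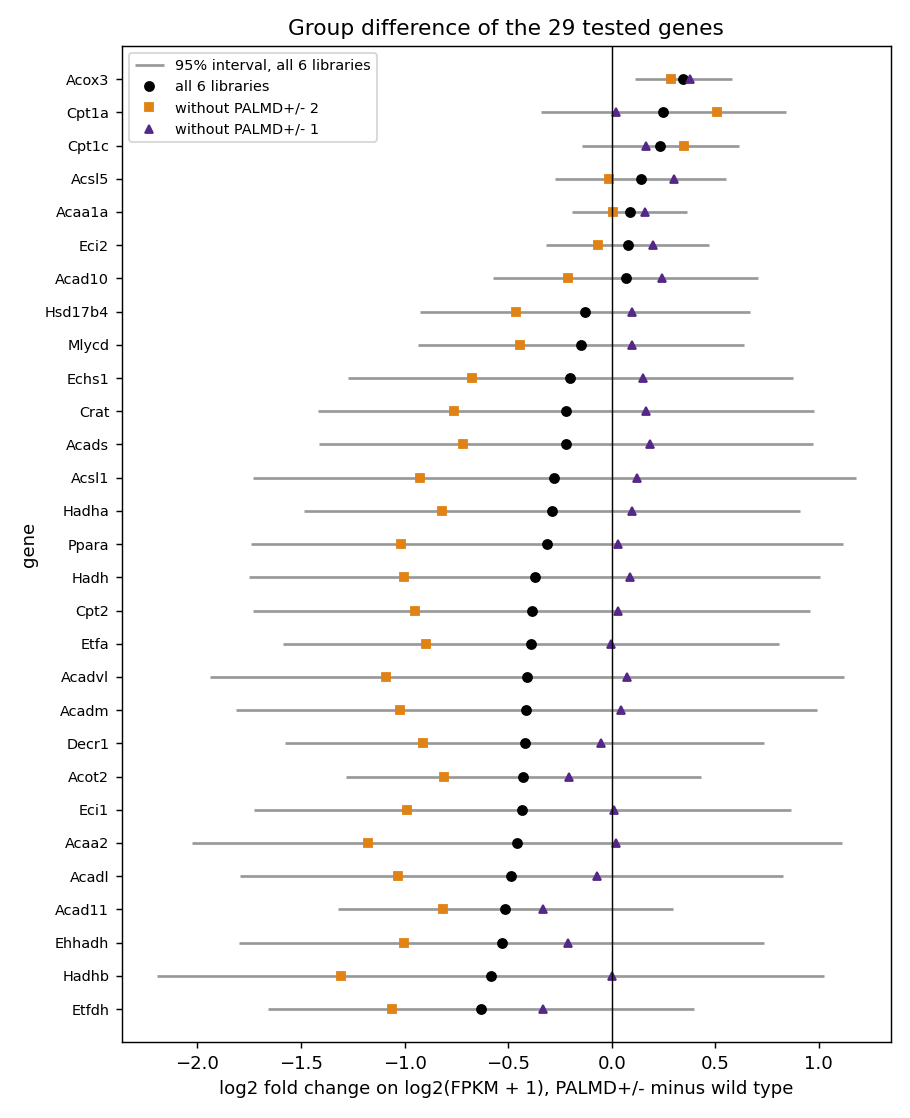
Log2 fold change (horizontal, PALMD+/- minus wild type on log2(FPKM + 1)) of the 29 tested genes, ordered by size. Black points with grey 95% intervals are from all 6 libraries, squares leave out PALMD+/- replicate 2 and triangles leave out PALMD+/- replicate 1. Only the interval of Acox3 stays above 0, and for most genes the squares lie far to the left and the triangles near 0.

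Of the 8 genes of fatty acid activation and the carnitine shuttle, the carnitine palmitoyltransferases divided by isoform. Cpt1a, the widely expressed form of the enzyme that commits fatty acids to mitochondrial entry, was at 42.3, 21.04 and 31.7 FPKM in PALMD+/- and at 25.0, 28.0 and 23.6 FPKM in wild type. It was the only member of the 32 lowest in PALMD+/- replicate 2, the library with the highest sum of brown adipocyte markers, and it was highest in PALMD+/- replicate 1, with overlapping groups (log2 fold change 0.25, SE 0.25, limma adjusted p = 0.924). Without PALMD+/- replicate 2 the value was 0.51 and without PALMD+/- replicate 1 it was 0.02. Cpt1c, a form best known from neurons, was at 6.36, 4.72 and 6.16 FPKM in PALMD+/- and at 5.82, 4.30 and 4.12 FPKM in wild type (log2 fold change 0.23, SE 0.16, limma adjusted p = 0.875).

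Cpt1b, the form of muscle and brown fat, was below the level tested. It was at 0.195, 1.53 and 0.455 FPKM in PALMD+/- (12, 89 and 28 reads) and at 0.454, 1.16 and 0.906 FPKM in wild type (28, 72 and 55 reads). PALMD+/- replicate 2 and wild type replicate 2 were the highest libraries, and the ratio of highest to lowest, 7.84, was the largest of the 32 members. In GENCODE M21, 81.4% of the exon bases of Cpt1b also belong to Gm44502 on the same strand, a gene not analysed here, so how many Cpt1b reads were counted is uncertain and its level cannot be set against Cpt1a.

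Of the other 5 genes of this step, Acsl5 varied least between libraries. Cpt2, which releases the acyl-CoA inside the mitochondrion, averaged 38.9 ± 29.2 FPKM in PALMD+/- and 46.0 ± 19.3 FPKM in wild type (SD, n = 3 each). Acsl1, a long-chain acyl-CoA synthetase, averaged 64.8 ± 55.5 FPKM in PALMD+/- and 67.1 ± 26.7 FPKM in wild type. The carnitine acetyltransferase Crat and the malonyl-CoA decarboxylase Mlycd, which removes the inhibitor of CPT1, had log2 fold changes of -0.22 and -0.15, with values 3.80 and 2.26 times as high in PALMD+/- replicate 2 as in PALMD+/- replicate 1. Acsl5, another long-chain synthetase, ran from 8.59 to 13.8 FPKM in PALMD+/- and from 8.99 to 10.6 FPKM in wild type.

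The acyl-CoA dehydrogenases, which take the first electrons from chains of a given length, were lowest in PALMD+/- replicate 1 in 6 of 6 cases. Acadl, the long-chain enzyme, was at 53.3, 204 and 79.0 FPKM in PALMD+/- and at 81.0, 155 and 190 FPKM in wild type (log2 fold change -0.48, SE 0.54, limma adjusted p = 0.939). Acad11, a less studied member of the family, was at 1.84, 4.57 and 2.12 FPKM in PALMD+/- and at 2.57, 4.92 and 5.80 FPKM in wild type (log2 fold change -0.51, SE 0.34, limma adjusted p = 0.868). Its groups overlapped through PALMD+/- replicate 2 alone, which lay above wild type replicate 1. The very long-chain, medium-chain and short-chain enzymes Acadvl, Acadm and Acads had log2 fold changes of -0.41, -0.41 and -0.22. Acadm, the medium-chain enzyme, averaged 107 ± 85.7 FPKM in PALMD+/- and 123 ± 47.6 FPKM in wild type. Opposite-strand exons of Dvl2 cover 42.9% of the exon bases of Acadvl, and the labels do not say whether the strand was kept, so reads of the 2 genes cannot be told apart. Acad10 was at 1.62 to 3.94 FPKM in PALMD+/- and at 1.88 to 2.96 FPKM in wild type, and 16.8% of its 50-base stretches also occur in Acad12.

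The enzymes of the later steps of the cycle differed between libraries by 3.40 times for Echs1 to 6.55 times for Hadhb. Acaa2, the thiolase that ends the mitochondrial cycle, was at 51.5, 274 and 71.5 FPKM in PALMD+/- and at 83.4, 171 and 185 FPKM in wild type (log2 fold change -0.46, SE 0.65, limma adjusted p = 0.953). Hadhb had a log2 fold change of -0.58 (SE 0.67, limma adjusted p = 0.940), which was -1.31 without PALMD+/- replicate 2 and -0.000405 without PALMD+/- replicate 1. All 5 genes of these steps, with Hadha, Hadh and Echs1 at log2 fold changes of -0.29, -0.37 and -0.20, were highest in PALMD+/- replicate 2 and lowest in PALMD+/- replicate 1. Hadh is the short-chain hydroxyacyl-CoA dehydrogenase and Echs1 the short-chain enoyl-CoA hydratase.

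Unsaturated fatty acids need extra enzymes, and of these Decr1, a dienoyl-CoA reductase, was at 15.0, 51.7 and 21.5 FPKM in PALMD+/- and at 22.6, 38.0 and 48.4 FPKM in wild type (log2 fold change -0.42, SE 0.48, limma adjusted p = 0.940). Eci1, an enoyl-CoA isomerase, was at 42.5, 173 and 67.9 FPKM in PALMD+/- and at 68.8, 122 and 147 FPKM in wild type (log2 fold change -0.43, SE 0.54, limma adjusted p = 0.948). Its relative Eci2, found in peroxisomes as well, ran from 6.08 to 9.21 FPKM in PALMD+/- and from 5.93 to 7.58 FPKM in wild type. The swing between libraries was thus 4.06 times for Eci1 and 1.55 times for Eci2.

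Etfdh, the oxidoreductase that passes electrons from the flavoprotein to ubiquinone, had the lowest log2 fold change of the 29 tested members. It was at 7.20, 21.6 and 9.38 FPKM in PALMD+/- and at 11.9, 20.8 and 24.5 FPKM in wild type (log2 fold change -0.63, SE 0.43, limma adjusted p = 0.879, exact two-sided permutation p = 0.3 where 0.1 is the smallest possible). The log2 fold change was -0.33 without PALMD+/- replicate 1 (limma adjusted p = 0.840) and -0.28 with the brown adipocyte covariate (limma adjusted p = 0.469). Without PALMD+/- replicate 2 it was -1.06 (limma adjusted p = 0.279). Etfa, the alpha subunit of the flavoprotein, was at 51.6, 180 and 75.6 FPKM in PALMD+/- and at 75.5, 135 and 157 FPKM in wild type (log2 fold change -0.39, SE 0.50, limma adjusted p = 0.950).

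Etfb, the beta subunit, stood far below its partner. It was at 0.423, 1.34 and 0.423 FPKM in PALMD+/- (9, 27 and 9 reads) and at 0.658, 0.748 and 0.859 FPKM in wild type (14, 16 and 18 reads), so that Etfa was 115 to 183 times as high in each library. In GENCODE M21, 58.2% of its exon bases are also exons of Gm45233, not analysed here, or of Mir7051 on the same strand. The reads assigned to Etfb are therefore uncertain, and its low level is no measure of the subunit's transcript.

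Acox3 was the only member for which all PALMD+/- values lay above all wild-type values, as they did for 7.80% of all tested genes, and no member had them all below, as 5.12% did. This peroxisomal oxidase, which acts on branched-chain acyl-CoA, was at 4.56, 5.28 and 4.57 FPKM in PALMD+/- and at 3.84, 3.49 and 3.36 FPKM in wild type. In limma it differed by 0.35 on the log2 scale (95% interval 0.11 to 0.58, SE 0.10), with an unadjusted p of 0.0109 and an adjusted p of 0.616. An exact permutation test, two-sided, gave p = 0.1, the smallest it can give. It kept that direction in each of the 14 other settings, between 0.29 and 0.43, and passed the threshold in none of them, with its lowest limma adjusted p, 0.0608, under array quality weights. Exons of 4931431C16Rik on the opposite strand cover 6.08% of its exon bases.

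The other peroxisomal genes did not share this pattern. Ehhadh, the bifunctional enzyme and a known PPAR alpha target, was at 4.88, 16.6 and 6.42 FPKM in PALMD+/- and at 6.44, 13.2 and 20.9 FPKM in wild type (log2 fold change -0.53, SE 0.53, limma adjusted p = 0.924). Hsd17b4, the second bifunctional enzyme of peroxisomes, averaged 40.7 ± 18.2 FPKM in PALMD+/- and 43.0 ± 11.4 FPKM in wild type. Acaa1a, a peroxisomal thiolase, had the narrowest range of the 32 members, 20.2 to 25.2 FPKM in PALMD+/- and 20.4 to 22.2 FPKM in wild type, and shares 12.4% of its 50-base stretches with Acaa1b.

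Acot1 and Acot2 are neighbouring acyl-CoA thioesterase genes on chromosome 12, and both are known PPAR alpha targets. Acot2, the mitochondrial enzyme, was at 3.09, 8.46 and 3.47 FPKM in PALMD+/- and at 4.68, 8.58 and 6.70 FPKM in wild type (log2 fold change -0.43, SE 0.36, limma adjusted p = 0.916). Acot1, the cytosolic enzyme, was not tested and was at 0.210, 0.650 and 0.447 FPKM in PALMD+/- (15, 44 and 32 reads) and at 0.363, 0.917 and 0.538 FPKM in wild type (26, 66 and 38 reads). Both were highest in wild type replicate 2 and lowest in PALMD+/- replicate 1. They are near copies, with 24.5% of the 50-base stretches of Acot2 transcripts present in Acot1 and 13.6% of those of Acot1 present in Acot2, so their separate levels are uncertain.

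Ppara, the receptor that drives the pathway, was at 1.48, 9.59 and 1.41 FPKM in PALMD+/- and at 2.71, 5.82 and 3.79 FPKM in wild type. PALMD+/- replicates 1 and 3 lay below every wild-type library and PALMD+/- replicate 2 above every one. The group means were 4.16 ± 4.70 FPKM in PALMD+/- and 4.11 ± 1.58 FPKM in wild type (SD, n = 3 each), while the log2 fold change was -0.31 (SE 0.59, limma adjusted p = 0.965), and it was -1.02 without PALMD+/- replicate 2. Ppara was 6.79 times as high in its highest as in its lowest library, a ratio exceeded among the members by Cpt1b alone.

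**Figure D4:**
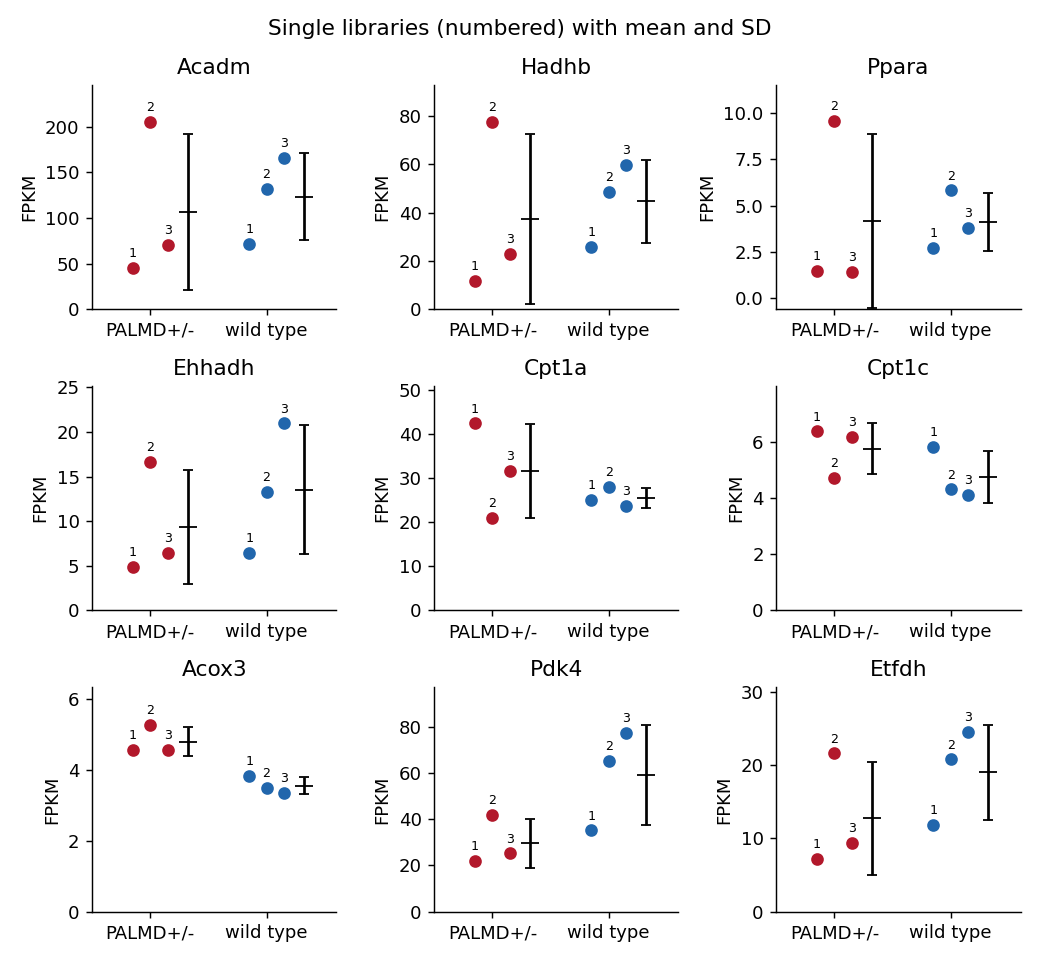
FPKM of 9 genes in single libraries (points, numbered by replicate, PALMD+/- in red and wild type in blue), with the mean and SD of each group beside them in black. Acadm, Hadhb, Ppara and Ehhadh have PALMD+/- replicate 2 far above the other PALMD+/- libraries, Cpt1a has it lowest, and Acox3 shows no overlap between groups (4.56 to 5.28 against 3.36 to 3.84 FPKM).

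Promoter windows of RefSeq were matched for 27 of the 32 members. No window held a direct repeat of AGGNCA with 1 base between the copies, the element bound by PPAR with its partner RXR, or the sequence TCAAGGTCA, the element of estrogen-related receptors, on either strand. The repeat occurs in 0.381% and the second element in 0.423% of all 32851 windows, so their absence from so few member windows carries no information. Sites outside 250 bases before to 50 bases after the start were not searched. The single copy AGGTCA, on either strand and chosen after the other counts were seen, was found in windows of 5 of the 27 members (Acadm, Acadvl, Cpt1a, Cpt1c and Echs1), or 18.5%, against 18.1% of all genes. It is contained in TCAAGGTCA and can form part of the repeat.

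Among 72 other genes of fatty acid use, transport and regulation, 66 were tested and 0 passed the threshold. Their log2 fold changes were above 0 for 29 and below 0 for 37, with a median of -0.05, which was -0.29 without PALMD+/- replicate 2 and 0.05 without PALMD+/- replicate 1. The unadjusted p was under 0.05 for 3 of them, Pdk4 and Fabp3 included, against 6.50% of all genes. All 12 genes of fatty acid uptake, binding and lipolysis were tested, 4 above and 8 below 0, and of 17 tested regulators and PPAR targets 6 were above and 11 below 0.

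Pdk4, a pyruvate dehydrogenase kinase, was at 22.0, 41.7 and 25.2 FPKM in PALMD+/- and at 35.1, 65.2 and 77.2 FPKM in wild type. Its highest PALMD+/- library lay above the lowest wild-type library and below the other wild-type libraries (log2 fold change -0.95, SE 0.35, limma unadjusted p = 0.0334, adjusted p = 0.731). The log2 fold change of Pdk4 was -0.68 with the brown adipocyte covariate (limma adjusted p = 0.277). It was -0.77 without PALMD+/- replicate 1 (limma adjusted p = 0.669) and -1.22 without PALMD+/- replicate 2 (limma adjusted p = 0.270). Pdk4 passed the threshold with array quality weights alone (-1.26, limma adjusted p = 0.0456). Those weights, estimated from these same values, were lowest for PALMD+/- replicate 2 (0.170). They were highest for PALMD+/- replicate 3 (3.59) and wild type replicate 2 (3.11). Fabp3, a fatty acid-binding protein of heart and brown fat, was at 11.2, 32.6 and 16.7 FPKM in PALMD+/- and at 26.3, 94.2 and 42.0 FPKM in wild type (log2 fold change -1.32, SE 0.54, limma adjusted p = 0.765). Wild type replicate 2 was far above all other libraries of Fabp3, and Slc27a2, a fatty acid transporter highest in the same library, was at 0.554, 3.21 and 0.933 FPKM in PALMD+/- and at 1.12, 6.58 and 3.09 FPKM in wild type.

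Acot9, a mitochondrial thioesterase, was at 19.5, 17.8 and 18.9 FPKM in PALMD+/- and at 22.9, 21.6 and 21.5 FPKM in wild type (log2 fold change -0.22, SE 0.09, limma adjusted p = 0.770). All PALMD+/- values lay below all wild-type values for this 1 of the 66 genes, as they did for 5.12% of all tested genes. Acad12, of the same list, averaged 2.099 ± 0.488 FPKM in PALMD+/- and 2.48 ± 0.541 FPKM in wild type.

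The carnitine carriers Slc25a20, which exchanges acylcarnitine across the inner mitochondrial membrane, and Slc22a5, which takes up carnitine, differed by -0.50 (SE 0.52) and by -0.14 (SE 0.13) on the log2 scale. The corepressor Nrip1 was at 5.22 ± 0.905 FPKM in PALMD+/- and at 6.85 ± 1.22 FPKM in wild type (log2 fold change -0.33, SE 0.16, limma adjusted p = 0.794). Angptl4, a lipoprotein lipase inhibitor and PPAR target, was at 19.8, 14.6 and 20.5 FPKM in PALMD+/- and at 19.8, 26.0 and 47.3 FPKM in wild type (log2 fold change -0.65, SE 0.32, limma adjusted p = 0.804). Ppargc1a, a coactivator of PPAR receptors, was at 1.72 ± 0.603 FPKM in PALMD+/- and at 1.39 ± 0.353 FPKM in wild type.

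The 4 ketone body genes did not follow the order of the fatty acid oxidation genes. They summed to 145, 125 and 148 FPKM in PALMD+/- and to 149, 143 and 129 FPKM in wild type. Oxct1, which lets tissues use ketone bodies, was at 97.8 ± 10.6 FPKM in PALMD+/- and at 100.1 ± 7.58 FPKM in wild type. None of the 4 had PALMD+/- replicate 2 and wild type replicates 2 and 3 all above the other libraries.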

How the data were processed

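The deposited files hold 1 FPKM value per gene and library, normalised by the authors to gene length and library size. No label or header names the unit, which was read from the values: multiplied by the exon length of the gene in GENCODE M21 (GRCm38), 94.8% to 95.2% of values of up to 30 reads were whole multiples of a step within 0.01 reads. Whether reads or fragments were counted is not told apart. HISAT2 2.1.0, Bowtie2 2.2.3, TopHat2 and GRCm38 are named in the submitters' processing notes, without roles. Neither the counter nor the annotation is named in the sources used here. Messenger RNA was purified with poly-T beads, per the labels' protocols, which do not say whether strand was kept.

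Groups and replicate numbers came from the sample titles. The headers inside the files number the PALMD+/- libraries differently, and the titles were used. Genes reaching 1 FPKM in 3 or more of the libraries were fitted by limma 3.58.1 with a mean-variance trend (R 4.3.3) on log2(FPKM + 1), without covariates, with Benjamini-Hochberg adjustment and a threshold of 0.05. Fold changes on this scale understate those of low genes. Tables were made with Python 3.11.15, pandas 2.3.3 and numpy 2.4.6, and plots with matplotlib 3.10.9. Members, gene lists and tests were chosen with earlier results of these data known. The genes given with values in every library were a fixed set of 7 members, the 2 tested members of each role with the smallest p and, of the other lists, the 2 genes with the smallest p and 4 more. Some genes this rule picks are not reported here. Hadha, Hadhb and the other members named were added after their values were seen.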

Additional observations from a re-analysis of the deposited data

How the results depend on the processing

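No member passed the threshold in any of the 14 alternative settings. Among all genes the number called was 0 in the comparison as designed, 232 with array quality weights, 25 with the white or general adipocyte level as a covariate and 0 to 1 with a library left out, and of the other pathway genes 1, Pdk4, was called with the weights. The median log2 fold change of the members was -0.31 as designed and -0.82 to 0.07 with a library left out, against a spread of 0.72 between libraries of a group (SD). It was -0.39 with a pseudocount of 0.1, -0.28 over 32 members with no filter, -0.32 with median-ratio scaling, -0.38 with voom on recovered reads, -0.78 with array quality weights, and -0.13 and 0.12 with the white or general and the brown adipocyte level as a covariate.

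With the brown adipocyte covariate, 15 members changed direction: Acaa2 (0.0824), Acadm (0.0731), Acads (0.20), Acadvl (0.13), Acsl1 (0.22), Cpt2 (0.0781), Crat (0.20), Echs1 (0.16), Eci1 (0.0212), Etfa (0.0245), Hadh (0.10), Hadha (0.12), Hsd17b4 (0.12), Mlycd (0.13) and Ppara (0.13). With array quality weights Acad10 (-0.0719) and Eci2 (-0.0433) did. With a library left out, the log2 fold change ran from -1.18 to 0.0190 for Acaa2, -0.21 to 0.25 for Acad10, -1.02 to 0.0462 for Acadm, -0.72 to 0.19 for Acads, -1.09 to 0.0731 for Acadvl, -0.93 to 0.12 for Acsl1, -0.0119 to 0.30 for Acsl5, -0.95 to 0.0303 for Cpt2, -0.76 to 0.17 for Crat, -0.67 to 0.15 for Echs1, -0.99 to 0.0125 for Eci1, -0.0655 to 0.20 for Eci2, -1.004 to 0.0882 for Hadh, -0.82 to 0.10 for Hadha, -0.46 to 0.10 for Hsd17b4, -0.44 to 0.10 for Mlycd and -1.02 to 0.0519 for Ppara. The cause was not tested.

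Libraries with the same number in the titles had correlations of their deviations from the group mean of 0.51, -0.09 and -0.34 for numbers 1, 2 and 3, and only those numbered 1 correlated best with each other, so the number was not taken to pair them. With the number as a replicate block 0 genes were called, 0 of them members, and the member median was -0.31. With 3 libraries a group, the widest 95% interval, that of Hadhb, ran from -2.20 to 1.03. No depth limit is given beyond the reads quoted for Cpt1b, Etfb and Acot1.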

Other observations

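In PALMD+/- replicate 2, where the white or general adipocyte markers were also highest (4451 FPKM, against 1547 to 3338 FPKM in wild type), 3 genes of fatty acid use, picked after their values were seen, lay above every other library. This was not particular to them: 50 of the 72 other pathway genes and 26.4% of all tested genes were highest in that library. Acacb, the acetyl-CoA carboxylase that makes the CPT1 inhibitor malonyl-CoA, was at 10.0, 97.1 and 17.3 FPKM in PALMD+/- and at 24.9, 29.2 and 56.0 FPKM in wild type. Acss2, which makes acetyl-CoA from acetate, was at 3.29, 45.4 and 5.99 FPKM in PALMD+/- and at 7.52, 5.42 and 15.6 FPKM in wild type. Slc27a1, a fatty acid transporter, was at 30.6, 143 and 37.1 FPKM in PALMD+/- and at 28.96, 37.3 and 54.4 FPKM in wild type.

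Of 5 endothelial markers, 4 (Pecam1, Cdh5, Vwf and Tie1) were lowest in the same library, and Kdr was highest there. Pecam1 was at 375, 72.0 and 352 FPKM in PALMD+/- and at 424, 372 and 382 FPKM in wild type, while Kdr, the VEGF receptor, was at 3.43, 14.6 and 3.95 FPKM in PALMD+/- and at 4.82, 5.30 and 5.42 FPKM in wild type. Tagln, a smooth muscle protein, was listed at only 2.12 to 4.16 FPKM in PALMD+/- and 3.02 to 4.29 FPKM in wild type. In GENCODE M21, 67.9% of its exon bases are also exons of Pcsk7 or Gm48529 on the opposite strand, so the reads assigned to Tagln are uncertain, also where it counts among the 6 smooth muscle markers.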
